A study of Mus musculus with 45 samples.

Results

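The cortex and striatum of wild-type (WT) mice were compared across the transcriptome. The labels describe male C57BL/6J mice at an age of 13 weeks, and the cortex samples were prefrontal cortex. The comparison used the 5 WT cortex and 5 WT striatum samples, which are 10 of the 45 RNA sequencing samples of the series. The other samples were WT hippocampus and all 3 regions of mice heterozygous (Shank3-HT) or homozygous (Shank3-HM, labelled knock-out) for a deletion of several Shank3 exons in the same strain, sex and age. Of these, the Shank3-HT and Shank3-HM cortex and striatum samples, 5 per group, were used for the same regional comparison in mice that share no sample with the WT comparison. A gene entered when its mean over the 10 WT samples was at least 10 normalized counts, which 16636 of the 18135 listed genes did. The unit is the authors' normalized count, an estimated read count per gene that DESeq2 normalized between libraries. Sequencing depth is unknown, since the normalized totals of 27870411 to 29568983 per WT sample are not depth. In bulk tissue, fewer cells of a type and less RNA per cell cannot be told apart, and this holds for every difference below.

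The cortex and the striatum share glia and vessels but are built from different principal neurons. Most cortical neurons are glutamatergic projection neurons arranged in layers, which form in the dorsal wall of the embryonic forebrain and load their vesicles through VGLUT1, the product of Slc17a7. The striatum has no such layers. Nearly all of its neurons are GABAergic spiny projection neurons (SPNs) from the lateral ganglionic eminence, which receive cortical glutamate and midbrain dopamine and fall into a direct pathway with D1 receptors, dynorphin and substance P and an indirect pathway with D2 dopamine receptors, adenosine receptors and enkephalin. The remaining striatal neurons include large cholinergic interneurons.

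The tissue labels were checked against 4 defining markers of each principal neuron. Cortical projection neuron markers (Slc17a7, Tbr1, Neurod6 and Emx1) in WT striatum replicates 1 to 4 had medians of 2.81% to 5.46% of the cortical mean. SPN markers (Ppp1r1b, Drd1, Drd2 and Adora2a) in the 5 cortex samples had medians of 1.15% to 1.58% of the striatal mean. The labels therefore matched the markers in all 10 samples, but WT striatum replicate 5 stood apart. Its cortical markers reached 10.8% to 24.8% of the cortical mean, with a median of 22.2%, and its SPN markers had a median of 80.2% of the striatal mean, against medians of 104% to 107% in the other striatum samples. Nr4a2, a nuclear receptor abundant in claustrum and deep insular cortex, stood at 1280 in this sample and at 144, 206, 273 and 332 in striatum replicates 1 to 4. All tests include this sample. Without it 28 of the named or listed genes changed call, 13 gained and 15 lost, and those described here are given with both values.

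**Figure D1:**
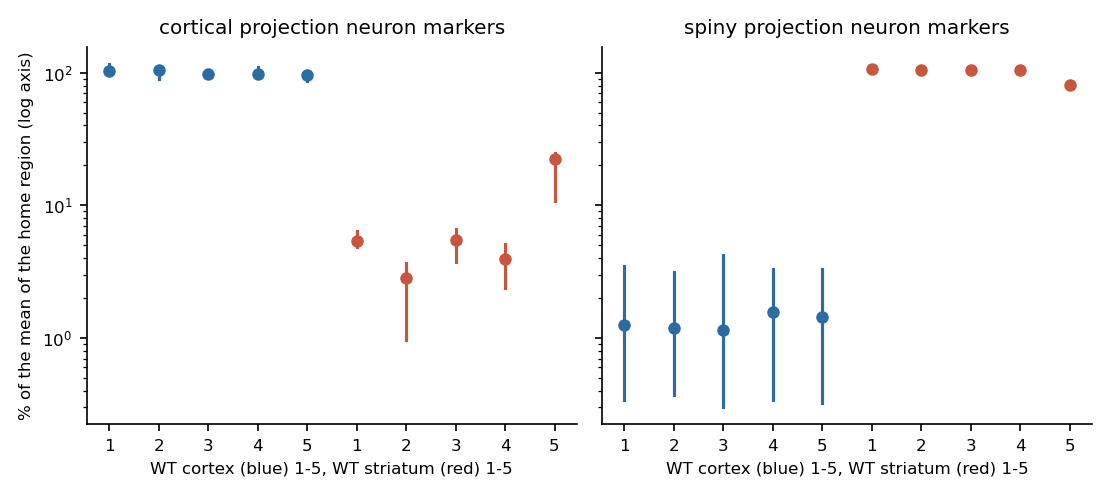
Levels of 4 cortical projection neuron markers (left) and 4 SPN markers (right) in each WT sample, as a percentage of the mean of the region they mark, on a log axis. Points are medians over the 4 markers and lines run from the lowest to the highest marker. In striatum replicate 5 the cortical markers lie at a median of 22.2%, above the 2.81% to 5.46% of the other striatum samples.

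Of the 16636 genes, 9936 differed between WT cortex and WT striatum in limma at an adjusted p (Benjamini-Hochberg) under 0.05, or 59.7% (percent called). These DEGs were split nearly evenly, with 5033 (30.3%) higher in striatum and 4903 (29.5%) higher in cortex. Most were small, with a median absolute log2 fold change of 0.58. The median log2 fold change of all genes tested was 0.013. A test against a 2-fold change (limma treat) left 1598 genes (9.61%), 744 (4.47%) higher in striatum and 854 (5.13%) higher in cortex. At least 4-fold apart were 506 DEGs higher in striatum and 520 higher in cortex, and at least 16-fold apart 145 and 66. Without striatum replicate 5 these were 491 and 593 at 4-fold and 142 and 92 at 16-fold, and 728 and 978 genes passed the 2-fold test. The samples of the regions did not overlap for 7739 genes (46.5%), 7696 of them among the DEGs. Without striatum replicate 5, 4965 genes were higher in striatum and 4884 in cortex. Fold changes are on the log2(value + 1) scale throughout, which understates changes of genes with low values.

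**Figure D2:**
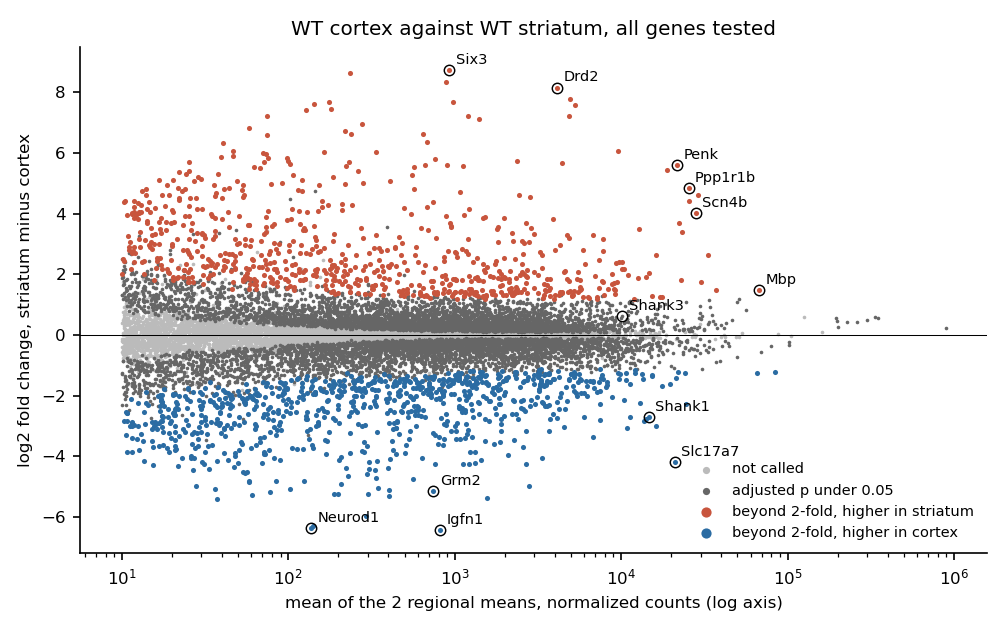
Each point is 1 of the 16636 genes tested, with the mean of the WT cortex and WT striatum means on a log x axis and the log2 fold change (striatum minus cortex) on the y axis. Red and blue points are the 744 and 854 genes past the 2-fold test, and the highest points (Six3 and others) reach further up than the lowest (Igfn1, Neurod1) reach down.

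The genes with the largest differences toward the striatum included transcription factors of the ventral forebrain and signalling genes of SPNs. Six3 (ENSMUSG00000038805, GRCm38 chr17:85613608-85629302), a homeobox factor of SPN development, was listed at 4.49, 0.986, 1.27, 7.98 and 5.89 in the cortex samples and at 1785, 1936, 1788, 1902 and 1862 in the striatum samples. The striatum samples all lay far above the cortex samples, and the log2 fold change was 8.74 ± 0.35 (SE, n = 5 per group, limma adjusted p = 1.28e-10). Six3 overlaps its antisense gene Six3os1, which was also higher in striatum, at 3.80 in cortex and 553 in striatum, with a log2 fold change of 6.96. The library kit keeps strand, but how the counting used it is not given in the sources used here, so that the pair may share reads. Drd2 (ENSMUSG00000032259, chr9:49340627-49408177), the D2 dopamine receptor, was at 28.1, 30.6, 24.8, 27.8 and 26.5 in cortex and at 8740, 9008, 8203, 8569 and 6469 in striatum. Its log2 fold change was 8.16 ± 0.093 (limma adjusted p = 1.42e-15), and the lowest of the striatum values was that of replicate 5. Isl1, a LIM homeobox factor of direct-pathway and cholinergic neurons, was listed at 1.74, 1.59, 0, 4.42 and 0 in cortex and at 389.9, 392, 349, 366 and 308 in striatum (log2 fold change 7.44).

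Other genes at the striatal end are less often used as markers. They were the lincRNA Gm39043 (log2 fold change 8.65), the serpin Serpina9 (8.36), the AMPA receptor associated gene Syndig1l (7.79), the glutathione peroxidase Gpx6 (7.70), Sh3rf2 (7.69) and Lrrc10b (7.59). Gm39043 was listed at 0 in 4 of 5 cortex samples and at 405 to 517 in striatum. Lrrc10b ran from 37.5 to 63.6 in cortex and from 7825 to 11897 in striatum. In 8 of these 9 genes the lowest striatum value was that of replicate 5, and Six3 was the exception.

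Toward the cortex the leading genes included several of glutamatergic neurons. Igfn1 (ENSMUSG00000051985, chr1:135953578-136006342), which encodes a protein with immunoglobulin-like and fibronectin domains, was at 1921, 1550, 1842, 1314 and 1473 in cortex and at 14.7, 10.6, 20.2, 7.99 and 60.3 in striatum. The groups were far apart, with a log2 fold change of -6.45 ± 0.39 (limma adjusted p = 6.43e-09), and the highest striatum value was that of replicate 5. Neurod1, a neurogenic bHLH transcription factor, was at 319.5, 262, 259, 279.9 and 238 in cortex and at 4.66, 2.05, 0, 0.978 and 10.3 in striatum (log2 fold change -6.37, and -6.81 without striatum replicate 5). Adcyap1, which encodes the neuropeptide PACAP, averaged 577 ± 61.7 (SD) in cortex and 10.5 ± 8.75 in striatum. Slc30a3, the transporter that loads zinc into glutamatergic vesicles, averaged 3035 ± 71.8 in cortex and ran from 27.2 to 232 in striatum (log2 fold change -5.37, and -5.78 without replicate 5). Grm2, a presynaptic group II glutamate receptor, ran from 1247 to 1578 in cortex and from 19.9 to 76.1 in striatum. The remaining 5 were the kinase Mylk3 (log2 fold change -6.32), the secreted factor gene Fam19a1 (-5.32), the adrenergic receptor Adra1d (-5.26), Tmem215 (-5.24) and the noncoding C730002L08Rik (-5.24). These 19 genes had no overlap between the regions, which the rule that chose them required.

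**Figure D3:**
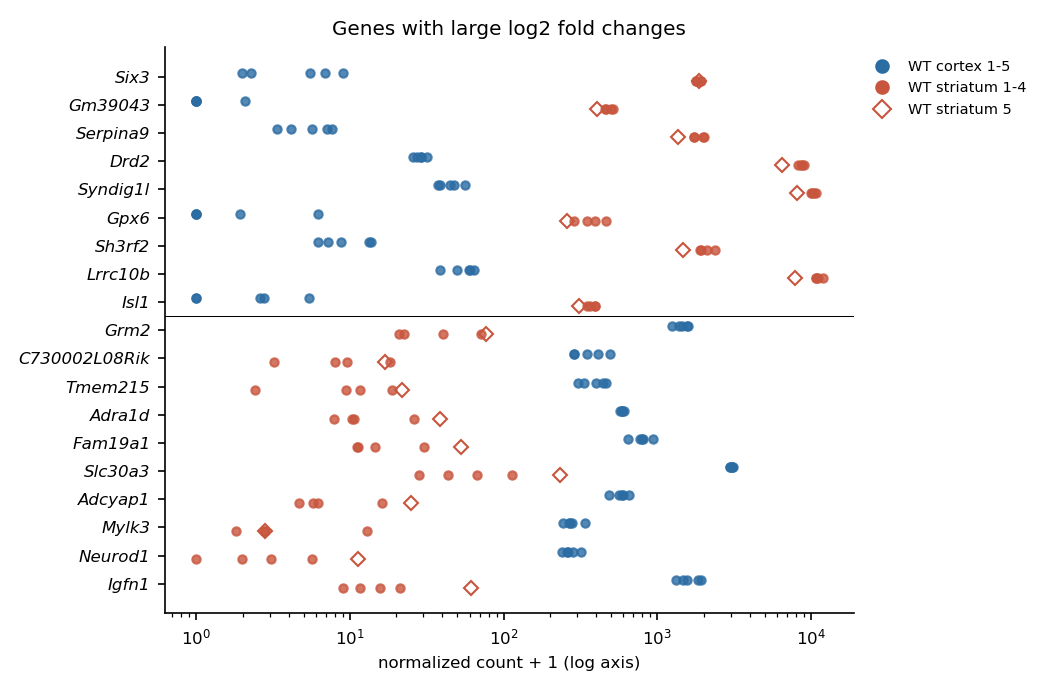
Normalized counts plus 1 on a log axis for the 9 genes named toward striatum (top) and the 10 named toward cortex (bottom) in each WT sample. Blue points are the 5 cortex samples, red points striatum replicates 1 to 4, and the open diamond striatum replicate 5, which lies at the low end in 8 of the 9 upper genes.

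Promoters were searched for 15 genes with large differences, of which 7 held a match and 8 held none. Of the 7, 4 are shown, because the pairs moved in opposite directions: Gpr6 and Isl1 toward the striatum, Igfn1 and Slc17a7 toward the cortex. They are RefSeq sequences of GRCm38.p6, from 250 bases before to 50 bases after a start, in lower case. Capitals mark the E-box letters CAGNTG, bound by bHLH factors such as the Neurod family, and the letters TGACG, a half-site of the cAMP response element, both searched on both strands. In Gpr6 2 half-sites overlap.
Gpr6 (chr10:41072241-41072540, minus strand): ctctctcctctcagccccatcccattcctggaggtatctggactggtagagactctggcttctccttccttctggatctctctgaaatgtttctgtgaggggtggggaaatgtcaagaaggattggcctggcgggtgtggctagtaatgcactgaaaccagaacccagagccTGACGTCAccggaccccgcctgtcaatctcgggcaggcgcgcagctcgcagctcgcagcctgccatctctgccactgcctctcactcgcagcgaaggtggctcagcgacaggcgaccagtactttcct
Isl1 (chr13:116309639-116309938, minus strand): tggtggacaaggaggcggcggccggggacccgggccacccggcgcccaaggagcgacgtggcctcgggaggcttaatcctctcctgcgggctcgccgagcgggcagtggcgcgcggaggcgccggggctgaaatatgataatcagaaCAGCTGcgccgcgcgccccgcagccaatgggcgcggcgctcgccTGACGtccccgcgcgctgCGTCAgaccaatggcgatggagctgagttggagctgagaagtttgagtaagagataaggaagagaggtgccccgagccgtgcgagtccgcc
Igfn1 (chr1:136006293-136006592, minus strand): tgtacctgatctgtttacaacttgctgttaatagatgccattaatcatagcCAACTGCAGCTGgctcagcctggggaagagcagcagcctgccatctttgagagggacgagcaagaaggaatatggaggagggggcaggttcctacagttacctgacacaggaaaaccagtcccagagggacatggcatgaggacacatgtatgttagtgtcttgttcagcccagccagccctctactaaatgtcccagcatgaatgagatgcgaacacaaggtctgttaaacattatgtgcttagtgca
Slc17a7 (chr7:45163671-45163970, plus strand): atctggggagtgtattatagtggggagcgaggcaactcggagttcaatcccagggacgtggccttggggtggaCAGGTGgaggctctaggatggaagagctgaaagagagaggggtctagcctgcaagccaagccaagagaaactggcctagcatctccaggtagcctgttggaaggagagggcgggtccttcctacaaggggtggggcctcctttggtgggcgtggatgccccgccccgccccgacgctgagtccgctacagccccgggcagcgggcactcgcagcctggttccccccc
Of all 32851 promoters of this length in the table, 51.4% held CAGNTG and 20.8% held TGACG. Among promoters of genes past the 2-fold test, CAGNTG was in 53.7% on the striatum side and 54.4% on the cortex side, and TGACG in 18.7% and 22.0%. The letters AGGTCA, a nuclear receptor half-site, were in 16.3% of all promoters and in 13.1% and 12.1% on these sides, and in none of the 4 shown. Promoters of 511 of the 744 genes and 575 of the 854 genes were matched by symbol.

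The SPN signalling list moved as a whole. All 30 tested genes of dopamine and cAMP signalling were higher in striatum, 26 of them past the 2-fold test, with a median log2 fold change of 3.19, against the 30.3% of all genes that were higher in striatum. Ppp1r1b, which encodes the dopamine-regulated phosphatase inhibitor DARPP-32, was at 1716, 1553, 2080, 1626 and 1632 in cortex and at 54782, 51212, 51108, 49144 and 39664 in striatum. The regions were 28.5-fold apart (limma adjusted p = 7.89e-14). Other members stood along the receptor cascade. The olfactory-type G protein subunit Gnal was 6.27-fold higher in striatum, the G protein subunit Gng7 had a log2 fold change of 4.41, the adenylyl cyclase Adcy5 was 10.5-fold higher, and the phosphodiesterase Pde10a 24.6-fold. Rgs9, which speeds G protein turnoff, averaged 279.6 ± 28.6 in cortex and 18872 ± 1967 in striatum, a log2 fold change of 6.07. The smallest change in this list was that of Ppp1r1a, another phosphatase inhibitor (log2 fold change 0.45).

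Within the families of these enzymes the members did not move together. Of all genes 30.3% were higher in striatum and 29.5% in cortex. Of 9 adenylyl cyclases 2 were higher in striatum, Adcy5 and Adcy3 (log2 fold change 0.55), and 6 were higher in cortex, among them the calcium-stimulated Adcy1 (-2.27) and Adcy8 (-2.37). Of 19 cyclic nucleotide phosphodiesterases 11 were higher in striatum, led by Pde10a (4.62), Pde1b (3.68) and Pde1c (3.19), and 6 in cortex, led by Pde1a (-2.30). Of 17 RGS genes 11 were higher in striatum and 4 in cortex. These 3 families were added after the values were seen.

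Both SPN pathways were represented. Of 9 direct-pathway markers 8 were higher in striatum and 1, Eya1 (log2 fold change -0.37), in cortex, and all 8 indirect-pathway markers were higher in striatum, against 30.3% of all genes higher in striatum and 29.5% in cortex. Drd1, the D1 receptor, was at 152, 166, 143, 199 and 184 in cortex and at 8943, 8758, 9122, 8948 and 7318 in striatum (51.0-fold, limma adjusted p = 1.99e-14). Tac1, the substance P precursor, was 23.2-fold higher and Pdyn, the dynorphin precursor, 4.72-fold higher. On the indirect side, Adora2a, the adenosine receptor of the indirect pathway, ran from 41.0 to 83.5 in cortex and from 7746 to 10338 in striatum, 148-fold apart. Penk, the enkephalin precursor, averaged 875 ± 67.9 in cortex and 42737 ± 6851 in striatum, 48.4-fold apart. Gpr6, an orphan receptor of indirect-pathway SPNs, was 149-fold higher. Both sets were lowest in striatum replicate 5. The summed direct-pathway markers were at 20680 there and at 22464 to 23700 in the other striatum samples, and the indirect-pathway markers at 56204 and 67357 to 80461. Its Pdyn value of 2802 was the highest of the striatum samples.

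Transcription factors separated the regions in both directions. Of 25 tested factors of the striatum and lateral ganglionic eminence 21 were higher in striatum and 1, Foxp4 (log2 fold change -0.43), was higher in cortex, against 30.3% and 29.5% of all genes. Besides Six3 and Isl1, the retinoid receptor Rarb was at 161, 169.6, 200.2, 199.5 and 209 in cortex and at 4967, 4915, 4745, 4691 and 4025 in striatum (24.8-fold), and its partner Rxrg was 53.3-fold higher. Of factors that cortical neurons also use, Bcl11b, which encodes CTIP2, was 6.93-fold, Meis2 5.12-fold and Foxp1 3.84-fold higher in striatum. Dlx genes of the ventral forebrain were split, as Dlx6 was 9.34-fold higher in striatum and Dlx5 had a log2 fold change of 2.35, while Dlx1 had one of -0.00 and did not pass the test.

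Of 31 tested factors of cortical projection neurons 25 were higher in cortex, 17 of them past the 2-fold test, and 3 were higher in striatum (Tle4, Pou3f1 and Pou3f3), where 29.5% of all genes were higher in cortex (5.13% past the 2-fold test) and 30.3% in striatum. The median log2 fold change was -1.57. Tbr1, a T-box factor of deep-layer neurons, was at 3935, 4044, 3923, 3793 and 3523 in cortex and at 194, 124, 253, 163 and 943 in striatum. Its log2 fold change was -3.95 ± 0.40 (limma adjusted p = 1.14e-06) and -4.43 without striatum replicate 5. Emx1, a homeobox factor of the dorsal forebrain, was 25.4-fold and Neurod2 19.2-fold higher in cortex. Cux2, of the upper layers, was 13.0-fold and Fezf2, of subcortical projection neurons, 9.65-fold higher.

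Several layer markers are used by SPNs as well. Of 16 upper layer markers 10 were higher in cortex and 4 in striatum, and of 25 deep layer markers 13 were higher in cortex and 10 in striatum, where 29.5% and 30.3% of all genes were. The deep layer genes higher in striatum included Syt6 (11.6-fold), Foxp2 (8.90-fold), Crym (4.32-fold) and Tle4 (2.93-fold). Npr3, a natriuretic peptide receptor, was the deep layer marker with the largest change toward cortex, 21.1-fold. Of 8 claustrum and insular markers 4 were higher in striatum and 3 in cortex. One of them, Cplx3, passed the test with striatum replicate 5 at 298, within the cortex range of 265 to 339, and the other striatum samples at 51.5 to 165. Nr4a2 did not pass with all samples (log2 fold change -0.09, limma adjusted p = 0.872) and did without replicate 5 (log2 fold change -0.59, adjusted p = 0.047).

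The transmitters of the principal neurons were opposite. Slc17a7 was at 40525, 40285, 38226, 37488 and 38955 in cortex and at 1884, 940.2, 2137, 1405 and 7801 in striatum. The groups did not overlap (18.5-fold higher in cortex, limma adjusted p = 6.36e-07), and the log2 fold change went from -4.21 to -4.68 without striatum replicate 5. Slc17a6, which encodes VGLUT2, was 16.3-fold higher in cortex, while Slc17a8, which encodes VGLUT3 and is used by cholinergic interneurons, was 5.51-fold higher in striatum. The GABA synthesis enzymes Gad1 and Gad2 were 1.74-fold and 3.20-fold higher in striatum, and Slc32a1, the vesicular GABA transporter, 3.19-fold. The astrocytic GABA transporter Slc6a11 (1.86-fold) was higher in cortex, as was Slc6a13 (log2 fold change -1.39), a transporter of meningeal fibroblasts. Markers of these fibroblasts were higher in cortex for 11 of 15 genes, against 29.5% of all genes, and their part in the Slc6a13 difference was not tested.

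GABA interneuron markers leaned toward the cortex, with 22 of 34 higher there and 8 higher in striatum (median log2 fold change -1.04), against 29.5% and 30.3% of all genes. Vip and Cck, neuropeptides of cortical interneurons (and, for Cck, projection neurons), were 27.3-fold and 16.6-fold higher in cortex, and Pvalb, the parvalbumin gene of fast-spiking cells, 7.99-fold. Sst, the somatostatin gene, differed little, at 3830 ± 285 in cortex and 3332 ± 287 in striatum (1.15-fold, limma adjusted p = 0.0163), and its samples overlapped. The members higher in striatum included Nkx2-1, the medial eminence factor kept by striatal interneurons (46.8-fold), the substance P receptor Tacr1 (46.7-fold), Chodl (4.87-fold) and the nitric oxide synthase Nos1 (2.45-fold). Lhx6, which both regions' interneurons use, had a log2 fold change of -0.06 and did not pass the test.

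Cholinergic genes were almost uniformly striatal, as 13 of 14 were higher in striatum and none in cortex, with a median log2 fold change of 4.78. Chat, which makes acetylcholine, was at 12.2, 17.3, 5.19, 10.7 and 13.5 in cortex and at 501, 596, 526, 546 and 409.8 in striatum (42.6-fold, limma adjusted p = 3.11e-10). The choline transporter Slc5a7 was 48.4-fold, the vesicular transporter Slc18a3 27.1-fold and the LIM factor Lhx8 96.1-fold higher. Ache, which breaks acetylcholine down, was 1.40-fold higher, and Zic4 did not pass the test (log2 fold change -0.20). Markers of neighbouring regions, which include Lhx8, were higher in striatum for 10 of 20 genes and in cortex for 7, against 30.3% and 29.5% of all genes. Their summed level ran from 5164 to 5431 in cortex and from 7041 to 9478 in striatum, or to 7502 without replicate 5, and their part in the cholinergic differences was not tested. Among markers of dopamine and other monoamine neurons, Th, the rate-limiting enzyme of dopamine synthesis, averaged 42.1 ± 11.2 in cortex and 169 ± 21.5 in striatum, and Slc18a2 3.63 ± 4.09 and 29.9 ± 21.6.

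Receptors for modulators differed subtype by subtype, and the counts stand beside 30.3% of all genes higher in striatum and 29.5% higher in cortex. All 4 dopamine receptors tested were higher in striatum, with Drd3 30.9-fold and Drd5 2.11-fold beside Drd1 and Drd2. Of 10 acetylcholine receptors 3 were higher in striatum, with Chrm4 at 3.16-fold, and 5 in cortex, with Chrnb3 at a log2 fold change of -4.23. Of 12 serotonin receptors 5 were higher in striatum, led by Htr1d (37.1-fold), Htr1b (11.4-fold) and Htr2c (7.05-fold), and 6 in cortex, led by Htr7 (6.54-fold) and Htr1a (5.59-fold). Of 9 adrenergic receptors 6 were higher in cortex, led by Adra1d (38.3-fold), and 2 in striatum, Adra2b (log2 fold change 4.15) and Adra2c (3.83-fold). Of 16 genes of the opioid and cannabinoid system 6 were higher in striatum and 9 in cortex, with a median log2 fold change of -0.51. The receptors Oprk1 (11.1-fold), Oprm1 (5.06-fold) and Cnr1 (2.43-fold) were among those higher in striatum, while Faah, which degrades anandamide, was 6.93-fold higher in cortex. Of 24 neuropeptide genes 14 were higher in cortex and 6 in striatum. Beside Penk, Tac1 and Pdyn, the striatal ones were Nts (27.5-fold), Trh (8.08-fold) and Scg2 (log2 fold change 1.11), and Bdnf, a growth factor kept in this list, was 15.4-fold higher in cortex.

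Glutamate receptor families were split between the regions, where 30.3% of all genes were higher in striatum and 29.5% in cortex. Of 18 AMPA receptor genes 8 were higher in striatum and 7 in cortex, and 1 in each direction passed the 2-fold test, the auxiliary subunits Cacng4 (6.37-fold higher in striatum) and Cnih3 (5.83-fold higher in cortex). Of 6 NMDA receptor genes 3 were higher in cortex, Grin2a (2.19-fold), Grin2d (1.83-fold) and Grin3a (log2 fold change -1.04), and 1 in striatum, Grin2c (0.14, a call lost without the intensity trend, under quantile normalization and in 1 fit of all 9 groups), while Grin1 (-0.04) and Grin2b (0.03) did not pass the test. Of 9 kainate and delta receptor genes 7 were higher in striatum, with Grik2 at 3.60-fold, and 2 in cortex, with Grik1 at 3.65-fold. Of 7 metabotropic receptors 5 were higher in striatum, with Grm4 at 4.25-fold and Grm5 at 2.46-fold, and 2 in cortex, Grm2 (35.9-fold) and Grm8 (log2 fold change -1.27). Of 16 GABA receptor genes 7 were higher in striatum and 6 in cortex.

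The Shank genes, which encode scaffolds of the excitatory postsynapse, went in opposite directions. Shank1 was at 22803, 26660, 22140, 29365 and 26000 in cortex and at 2936, 3488, 3583, 3882 and 5760 in striatum, 6.60-fold higher in cortex (limma adjusted p = 1.46e-09). Shank2 was at 8125, 8776, 8431, 10689 and 10037 in cortex and at 3530, 3614, 3798, 4468 and 4455 in striatum, 2.32-fold higher in cortex. Shank3 (ENSMUSG00000022623, chr15:89499623-89560261), the gene that the study mutated, was at 6985, 7519, 8365, 8717 and 8437 in cortex and at 12189, 12644, 12705, 12740 and 11309 in striatum. None of these genes overlapped between the regions, and Shank3 was 1.54-fold higher in striatum (limma adjusted p = 8.74e-07). Shank3 was higher in striatum in the mutants too, at 6138 ± 373 in cortex and 8725 ± 581 in striatum of Shank3-HT mice and at 4054 ± 285 and 5735 ± 667 in Shank3-HM mice. Over the 24 postsynaptic scaffold genes 13 were higher in striatum, none past the 2-fold test, and 10 in cortex, 3 past it. Of all genes 30.3% and 29.5% were higher in these regions, 4.47% and 5.13% past the 2-fold test. Those 3 were Shank1, the Shank partner Homer2 (4.84-fold) and Dlgap1 (4.44-fold), which links Shank to PSD-95. Baiap2, an actin regulator bound by Shank proteins, was 2.13-fold higher in striatum, and Dlg4, which encodes PSD-95, 1.09-fold.

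Among kinases and ion channels, potassium channel genes leaned toward the cortex. Of 20 calcium and calmodulin kinase genes 12 were higher in cortex and 7 in striatum. Camk2a, the main kinase of excitatory synapses, was 2.32-fold higher in cortex, while Pcp4, a calmodulin regulator, was 5.28-fold and the calcineurin subunit Ppp3ca 2.14-fold higher in striatum. Of 62 potassium channel genes 40 were higher in cortex and 19 in striatum (median log2 fold change -0.84), against 29.5% and 30.3% of all genes. The leading cortical genes were Kcnk4 (17.2-fold), the G protein gated Kcnj6 (14.8-fold), Kcnc2 (11.7-fold) and Kcnc4 (9.65-fold), the last pair subunits of fast delayed rectifiers. The leading striatal genes were Kcna5 (18.3-fold), Kcnab1 (6.83-fold), Kcna4 (5.85-fold) and the leak channel Kcnk2 (3.86-fold). Of 28 sodium, calcium and HCN channel genes 14 were higher in striatum and 12 in cortex. Scn4b, an auxiliary sodium channel subunit, was at 3341, 3013, 3622, 3567 and 2704 in cortex and at 59777, 58396, 56775, 52147 and 38950 in striatum, 16.3-fold apart (limma adjusted p = 3.37e-12).

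Of 17 genes of the retinoic acid pathway, which the striatum uses in development and adult life, 11 were higher in striatum and 4 in cortex, where 30.3% and 29.5% of all genes were. Crabp1, a retinoic acid binding protein, was listed at 0, 2.86, 2.42, 0 and 4.47 in cortex and at 146, 163, 141, 146 and 131 in striatum (62.0-fold). Aldh1a3 (7.56-fold) and Aldh1a2 (log2 fold change -1.93), which make retinoic acid, and Cyp26b1 (-1.36), which degrades it, were higher in cortex, as was Rara (-1.75). Aldh1a1, another synthesis enzyme, was 1.26-fold higher in striatum with overlapping samples. Among Eph receptors and ephrins, 6 of 20 were higher in striatum, led by Efnb3 (4.04-fold), and 9 in cortex, led by Ephb3 (5.74-fold).

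Of the glial lists, oligodendrocytes differed most. Of 30 oligodendrocyte markers 29 were higher in striatum, with a median log2 fold change of 1.30. Mobp, a myelin gene, was at 9048, 9747, 10723, 12772 and 8918 in cortex and at 31879, 32029, 41364, 35573 and 36263 in striatum (3.47-fold, limma adjusted p = 2.07e-09). Mbp (2.78-fold) and Mog (2.58-fold) were higher as well, and Enpp2 was the only marker of this list higher in cortex (1.17-fold). Of 12 oligodendrocyte precursor markers 6 were higher in striatum and 1 in cortex, where 30.3% and 29.5% of all genes were, and Pdgfra, which defines these cells, had a log2 fold change of 0.02. Of 26 microglia markers 18 were higher in striatum and none in cortex, beside these shares of all genes, with a median of 0.26. Cx3cr1 (1.20-fold) and P2ry12 (1.26-fold) had overlapping samples, and the lysosomal gene Cd68 had the largest change of this list, 2.53-fold.

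Astrocyte markers were higher in cortex for 19 of 35 genes and in striatum for 6, against 29.5% and 30.3% of all genes, with a median of -0.23. Aqp4, the water channel of endfeet, was 1.18-fold and the connexin Gjb6 2.43-fold higher in cortex, while Id4 (4.34-fold) and Crym (4.32-fold, also in the deep layer list) were higher in striatum. Gfap was at 1621, 1653, 1606, 1408 and 1724 in cortex and at 859, 1078, 1293, 1016 and 1423 in striatum, 1.43-fold higher in cortex with striatum replicate 5 above the lowest cortex sample. Of 28 endothelial and mural genes 1 was higher in each region, where 59.7% of all genes were called. Meningeal and perivascular fibroblast markers were higher in cortex for 11 of 15 genes, among them Ptgds (3.13-fold) and Fmod (4.05-fold). The summed level of the 16 listed in the table ran from 14581 to 23342 in cortex and from 9380 to 14470 in striatum.

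The striatum borders the lateral ventricle, and some genes of its ependymal lining were higher there. Of 13 tested ependymal and choroid plexus markers 8 were higher in striatum and 2 in cortex, against 30.3% and 29.5% of all genes, and 6 were higher in striatum without replicate 5. The summed level of the 18 listed in the table overlapped, from 5519 to 6424 in cortex and from 5309 to 7843 in striatum. Most of these sums was Enpp2, which is also in the oligodendrocyte list, at 5283 to 6050 in cortex and 4340 to 5246 in striatum. The sums therefore say little about the other genes of the list. Ccdc153, a gene of motile cilia, was listed at 4.61, 0.675, 0, 0 and 7.65 in cortex and at 118, 64.2, 172, 204 and 183 in striatum. Foxj1, the factor that drives motile cilia, was 3.99-fold higher. Clic6, which choroid plexus also uses, ran from 6.30 to 9.73 in cortex and from 411 to 512 in striatum. Ttr, the defining transcript of the choroid plexus, was at 839.6 in striatum replicate 4 and at no more than 92.4 in the other 9 samples, and did not pass the test. Clic6 was at 511 in striatum replicate 4 and at 512 in striatum replicate 1, where Ttr was at 8.43. The part of the ventricular lining in the differences of other genes was not tested.

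In housekeeping lists no gene passed the 2-fold test. Of all genes 30.3% were higher in striatum and 29.5% in cortex. Of 76 nuclear genes of the respiratory chain and ATP synthase 11 were higher in striatum and 13 in cortex, with a median of -0.03. Of 79 cytosolic ribosomal protein genes 34 were higher in striatum and 1, Rps14 (log2 fold change -0.26), in cortex, with a median of 0.12. Of 32 activity-regulated genes 1 was higher in striatum, 8 were higher in cortex and 23 did not pass the test, in the fit without a replicate block, where 59.7% of all genes were called. Without striatum replicate 5, 11 were higher in cortex. A fit with sample numbers as a replicate block called more of these genes in both directions, as given below. Fos ran from 514 to 1664 in cortex and from 92.1 to 871 in striatum (log2 fold change -1.26 ± 0.52, limma adjusted p = 0.0518, and -1.52 with 0.0210 without striatum replicate 5), and Arc had a log2 fold change of -0.76 ± 0.50. Both genes were lower in striatum than in cortex at every replicate number, which the fit without a replicate block does not use. Of the 8 higher in cortex, Bdnf (15.4-fold), Ier2 (3.39-fold) and Trib1 (2.80-fold) changed most.

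**Figure D4:**
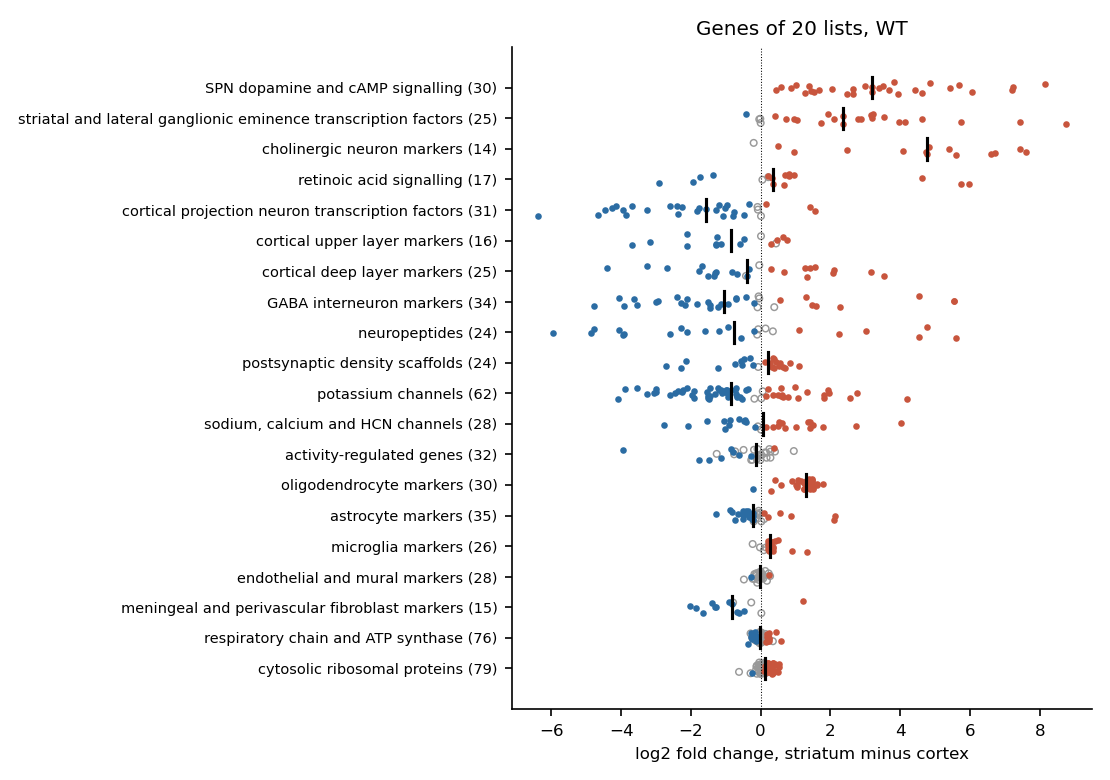
Log2 fold changes (striatum minus cortex) of the tested genes of 20 lists in WT mice, 1 point per gene, with the number tested in parentheses. Red and blue points passed the test toward striatum and cortex, open points did not, and black bars are medians, which run from -1.57 for cortical projection neuron transcription factors to 4.78 for cholinergic neuron markers.

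The same contrast was then made in the mutant mice. In Shank3-HT mice 9607 of 16631 genes differed between the regions (57.8%), and in Shank3-HM mice 8645 of 16639 (52.0%). Of the WT DEGs tested in Shank3-HT mice 9770 of 9852 had the same direction (99.2%) and 8428 (85.5%) also passed there. In Shank3-HM mice 9742 of 9865 had the same direction (98.8%) and 7767 (78.7%) passed. Of the genes beyond 2-fold in WT mice, 1562 of 1569 passed in the same direction in Shank3-HT mice and 1566 of 1575 in Shank3-HM mice. A gene passed in opposite directions in 2 cases in Shank3-HT mice (Xpot and Vwa3b) and in 1 case in Shank3-HM mice (Plekha2), and these 3 were chosen after their values were seen. Without Shank3-HM cortex replicate 2 there were 3 such cases in Shank3-HM mice, Plekha2, Lgi2 and Gm15387, named on the same ground. Shank3-HM cortex replicate 2 carried striatal transcripts, with 1312 Drd2 counts, and the log2 fold changes of Six3 and Drd2 were smaller in Shank3-HM mice. Six3 had 8.74 in WT mice, 9.12 in Shank3-HT mice and 7.39 in Shank3-HM mice, or 8.85 without that sample. Drd2 had 8.16, 8.27 and 6.84, or 7.88 without it. Igfn1 had -6.45, -6.14 and -6.28. Cortical transcripts also varied between the mutant striatum samples. Slc17a7 ran from 86.5 to 6039 in Shank3-HT striatum, highest in replicate 3. In Shank3-HM striatum it ran from 439 to 6032, highest in replicate 1, where WT striatum replicate 5 had 7801.

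The regional difference itself was tested between genotypes in 1 limma fit of the 30 cortex and striatum samples. No gene differed between WT and Shank3-HT mice at an adjusted p under 0.05, with 521 of 16634 at an unadjusted p under 0.05. Between WT and Shank3-HM mice 2 genes did (0.0120% called), with 834 at an unadjusted p under 0.05. By chance about 1 in 20 of the genes tested reach an unadjusted p under 0.05. Csdc2, an RNA-binding protein gene, averaged 2766 ± 151 in WT cortex and 1796 ± 208 in WT striatum, against 2636 ± 53.6 and 2456 ± 192 in Shank3-HM mice. Its log2 fold change was -0.63 in WT and -0.11 in Shank3-HM mice, a difference of 0.52 (limma adjusted p = 0.0434). Gpr139, an orphan receptor, averaged 16.0 ± 4.93 in WT cortex and 544 ± 130 in WT striatum, and 51.3 ± 12.7 and 579 ± 44.6 in Shank3-HM mice. Its log2 fold change went from 5.01 to 3.50, a difference of -1.51 (adjusted p = 0.0434), and all 5 Shank3-HM cortex samples lay above the 5 WT cortex samples. Both calls lay near the threshold. Each gene stayed past the threshold in 11 of 30 fits that left out 1 sample and missed it in 19, with adjusted p values from 0.00626 to 0.137. In these fits the difference itself ran from 0.48 to 0.58 for Csdc2 and from -1.66 to -1.41 for Gpr139. Some of the calls were missed without a Shank3-HT sample, with the differences unchanged at 0.52 and -1.51. Without Shank3-HM cortex replicate 2, Csdc2 had a difference of 0.53 (limma adjusted p = 0.0847) and Gpr139 one of -1.41 (adjusted p = 0.0873), and no gene was called. Without WT striatum replicate 5, 6 genes were called.

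**Figure D5:**
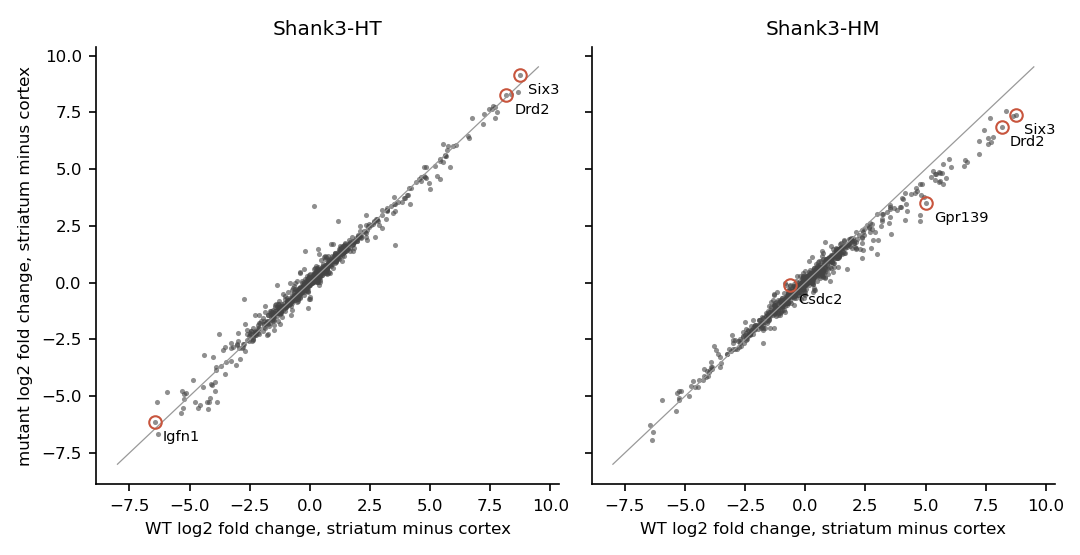
Log2 fold changes (striatum minus cortex) in WT mice on the x axis against those in Shank3-HT (left) and Shank3-HM (right) mice on the y axis, for the 949 named or listed genes where tested. The grey line marks equal values, and Six3 and Drd2 lie below it in Shank3-HM mice, where Six3 has 7.39 with and 8.85 without cortex replicate 2.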

How the data were processed

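RNA of cortex, striatum and hippocampus was sequenced in 45 samples, 5 per region and genotype, from libraries of a stranded mRNA kit. Per the submitters' processing notes and the study's methods, the authors estimated counts with Salmon 1.1.0 and normalized them between libraries with DESeq2 in R, for which these sources name different versions. The deposited table holds 18135 genes on GRCm38 as these normalized counts, a signal that is not whole reads. Values were not whole multiples of 1 step, so that no reads were recovered, depth is unknown and no count test was made. How the counting used strand is not given in the sources used here. Columns named KI were matched to the knock-out label by elimination and are called Shank3-HM here. Mean Shank3 levels of WT, Shank3-HT and these samples were 8005, 6138 and 4054 in cortex and 12317, 8725 and 5735 in striatum.

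A gene was tested if it averaged 10 or more over the samples compared. Tests used log2(value + 1) and limma 3.58.1 in R 4.3.3 (lmFit, eBayes with an intensity trend, 2-sided, Benjamini-Hochberg over all genes tested, 0.05). A second test (treat) asked for more than a 2-fold change. The regional difference was compared between genotypes as an interaction in 1 fit of 30 samples. Scripts were tested on simulated data. The labels do not say that same-numbered samples of the regions came from the same mouse, and where samples are not separate mice the p-values measure only the spread between them.

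Named were the 10 genes with the largest change in each direction that were called, did not overlap and averaged at least 200 in the higher region, members of gene lists (all of short lists, otherwise the largest changes and the defining genes) and Shank3. The members and lists were chosen with earlier results of these data known, and 6 families were added after the values were seen. Listed genes outside the table were not analysed here, and a few genes that met these rules, some of them defining markers, are not reported here. Positions and symbols are from GENCODE M21, which matched 18120 genes, and promoters from RefSeq. Alternatives were scaling, pseudocount, filter, trend, all groups in 1 fit, a replicate block and leaving out each sample. Figures were drawn with matplotlib 3.10.9.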

Additional observations from a re-analysis of the deposited data

Results flagged for a closer look

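Among the 189 genes named with values per sample, each WT group of 5 was searched for a highest or lowest sample that stood apart by Dixon's test, with a critical value of 0.71. Of 378 groups 47 held such a sample, where about 1 in 20, or 18.9, are reached by chance. WT striatum replicate 5 accounted for 35 of the 47, and the other 9 samples for 12.

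In striatum replicate 5, 25 genes stood apart as the highest of the striatum samples. Most of these were genes that were higher in cortex. Transcription factors among them were Neurod2 at 420.1, Neurod6 at 606, Tbr1 at 943 and Nr4a2 at 1280 normalized counts. Genes of transmitters and their transport were Slc17a7 at 7801, Slc17a6 at 68.6, Slc18a2 at 67.6, Bdnf at 170.3, Cck at 1182, Nts at 195 and Scg2 at 9776. Among channels and receptors, Kcnc2 stood at 622, Kcnc4 at 483, Kcnj6 at 169.7, Cnih3 at 685, Htr1a at 158 and Oprm1 at 177. Among signalling and other genes, Adcy1 stood at 10416, Adcy8 at 143, Pde1a at 2091, Homer2 at 974, Cyp26b1 at 64.2, Plxna1 at 1577, Wnt10a at 52.0 and Igfn1 at 60.3. Nts, Scg2, Oprm1 and Slc18a2 were higher in striatum over all samples, and Nr4a2 did not pass the test.

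In the same sample 10 genes stood apart as the lowest, and all of them were higher in striatum. They were Adcy5 at 34793, Adora2a at 7746, Drd1 at 7318, Gpr6 at 1867, Lrrc10b at 7825, Pde10a at 43557, Rgs9 at 15467, Slc32a1 at 4757, Syndig1l at 8093 and Syt6 at 4739. The 4 cortical projection neuron markers of this sample had a median of 22.2% of the cortical mean, against 2.81% to 5.46% in the other striatum samples, and the part of this difference in each gene above was not tested.

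The remaining cases were single genes. In striatum replicate 4, Aldh1a3 was lowest at 2.10, Mylk3 highest at 11.9 and Ttr highest at 839.6. In cortex replicate 5, Cyp26b1 was highest at 148, Gm39043 at 1.09 and Gng7 at 2563, and Faah was lowest at 3004. In cortex replicate 3, Drd3 was highest at 1.35, Gpx6 at 5.19 and Slc18a3 at 14.1. Dlx6 was lowest in cortex replicate 4 at 63.8, and Oprk1 was highest in cortex replicate 2 at 189.

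The regional effect differed between WT and Shank3-HM mice for Csdc2 by 0.52 and for Gpr139 by -1.51 on the log2 scale (limma interaction test). Each call was lost in 19 of 30 fits that left out 1 sample.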

How the results depend on the processing

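Across 19 alternatives to the WT comparison, no named or listed gene that was called in either fit reversed direction, of 949 compared. Of 17933 results of single genes under an alternative 17436 kept their side of the threshold, 315 lost it and 182 gained it, and of 1596 counts of list members 1549 stayed within 1.5 times. The number of DEGs ran from 8037 (mean of at least 100) to 10397 (no filter). A mean of at least 100 tests fewer genes and left 1017 genes beyond 2-fold, 455 toward striatum and 562 toward cortex. It also left, toward striatum, 5 interneuron markers, 2 dopamine, 1 adrenergic and 3 ependymal genes, and toward cortex 3 acetylcholine receptors, 7 neuropeptides, 1 retinoic acid, 2 endothelial and 1 ependymal gene. In 1 fit of all 9 groups the counts toward striatum were 0 for NMDA receptors, 2 for activity-regulated and 0 for endothelial genes, and toward cortex 0 for oligodendrocyte, 1 for ependymal and 8 for respiratory chain genes, for which the cause was not tested. NMDA receptors toward striatum were also 0 without the intensity trend and under quantile normalization, where Grin2c was the gene lost.

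Leaving out each sample in turn gave 9400 to 9849 DEGs and 1503 to 1706 genes beyond 2-fold, the latter without striatum replicate 5. Toward striatum the counts were 0 to 1 for NMDA receptors, 1 to 4 for activity-regulated, 1 to 2 for endothelial and 7 to 13 for respiratory chain genes. Toward cortex they were 0 to 2 for ribosomal, 0 to 2 for endothelial, 1 to 2 for ependymal and 8 to 19 for respiratory chain genes. Without cortex replicate 1, 4 activity-regulated genes were higher in striatum and 8 respiratory chain genes higher in cortex, and 7 respiratory chain genes were higher in striatum without cortex replicate 4, cortex replicate 5 or striatum replicate 1. The genes whose regional effect differed from WT, with 1 sample left out at a time (chosen after seeing the data), were 0 to 6 in Shank3-HM and 0 to 1 in Shank3-HT mice.

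Sample numbers were tried as a replicate block. Same-numbered WT samples of the regions had correlated deviations of -0.0237 to 0.161, over 0.1 in 3 of 5 pairs, and 3 of 5 cortex samples correlated best with their own number, so that the numbers were not taken as pairs. The correlations of same-numbered samples ran from 0.0631 to 0.164 in Shank3-HT mice and from -0.108 to 0.238 in Shank3-HM mice. With the replicate block 10386 genes were DEGs (5297 toward striatum, 5089 toward cortex). Activity-regulated genes gave 6 toward striatum and 13 toward cortex, and toward cortex there were 3 endothelial, 23 respiratory chain and 3 ribosomal genes. In the test between WT and Shank3-HM mice 10 genes passed with the replicate block. Depth is unknown, so that no counting error can be given for low values.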

Other observations

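Several families of axon guidance and adhesion genes, added after the values were seen, differed between WT cortex and WT striatum member by member. Of 31 tested semaphorins and plexins 8 were higher in striatum and 15 in cortex, where 30.3% and 29.5% of all genes were. Plxna1, a semaphorin co-receptor subunit, was at 4798, 4301, 4111, 4445 and 3921 in cortex and at 612, 679, 693, 721 and 1577 in striatum (log2 fold change -2.43, limma adjusted p = 1.42e-07). Its family members Plxna3 (-1.03) and Plxna4 (-1.06) were also higher in cortex. The secreted Sema3f averaged 160.0 ± 30.3 (SD) in cortex and 501 ± 82.7 in striatum, and Sema3e 685 ± 74.9 and 1563 ± 137. Of 19 tested cadherin genes of the Cdh family, which encode adhesion proteins, 5 were higher in striatum and 10 in cortex. Cdh13 (log2 fold change 1.59), Cdh9 (1.42) and Cdh8 (1.40) led toward striatum, and Cdh1 (-1.77) and Cdh12 (-1.54) toward cortex.

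Wnt ligands, receptors and their secreted modulators gave 10 genes higher in striatum and 15 in cortex of 30 tested, beside 30.3% and 29.5% of all genes. Wnt8b was listed at 0 in all 5 cortex samples and at 49.2, 63.0, 52.6, 35.9 and 19.7 in the striatum samples. Wnt2 averaged 66.4 ± 9.70 in cortex and 349.5 ± 29.5 in striatum, and the receptor Fzd5 34.1 ± 7.64 and 222 ± 34.6. On the cortical side stood Wnt9a (log2 fold change -3.53), Wnt10a (-3.09) and Wnt4 (-2.83). Dkkl1, a relative of the secreted Dickkopf inhibitors, was at 614, 529, 587, 623 and 499 in cortex and at 26.1, 14.9, 15.2, 19.3 and 53.4 in striatum, with a log2 fold change of -4.58 (limma adjusted p = 6.07e-09). In Shank3-HT and Shank3-HM mice its log2 fold changes were -5.37 and -4.60.

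Noncoding genes were among those that differed. Of 488 lincRNA genes tested 282 were called (57.8%), against 8924 of 14510 protein-coding genes (61.5%), at median levels of 38.9 and 636 normalized counts. Of 130 processed pseudogenes 36 were called (27.7%), at a median level of 30.5. Differences between these classes were not tested. Beside Gm39043 and Six3os1, the noncoding genes with large differences included Lrp8os2, antisense to Lrp8, at 8.32 ± 2.15 in cortex and 436 ± 62.4 in striatum (log2 fold change 5.57), and 9130024F11Rik, at 748 ± 22.3 in cortex and 48.6 ± 54.5 in striatum (-4.39). These genes may share reads with overlapping genes, since how the counting used strand is not given in the sources used here.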
